A study of Mus musculus with 6 samples.

Results

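Glucose is made in the kidney as well as in the liver, and 9 genes of this route and of the glutamine metabolism that feeds it were followed here in iron-deficient (FeD) kidneys. They were taken by gene symbol from the 24422 rows of the deposited count tables, and were chosen with earlier results of these data known. The genes were Pcx, Pck1, Pck2, Fbp1, G6pc and Slc37a4 of gluconeogenesis, and Glul, Glud1 and Got1 of glutamine and glutamate metabolism. All 9 had a row and passed the filter on low counts, which left 15145 genes for testing.

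RNA-seq had been performed on whole kidneys of wild type C57BL/6 pups at postnatal day 15, each kidney a separate library. The dams of both groups were 8 weeks old when put on their diets. The 3 control kidneys came from pups of dams given an iron-sufficient diet (220 ppm iron), and the 3 FeD kidneys from pups of dams given an iron-deficient diet (2 to 6 ppm iron) before mating, through pregnancy and until the pups were taken. No pup carried a deletion or a transgene, and the number of litters and the sex of each pup were not given, so litter and diet cannot be told apart. P values therefore measure the spread between these kidneys.

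Gluconeogenesis in the kidney takes place in the proximal tubule, which does not break down much glucose itself. Lactate and glutamine are its main substrates there. Glutamine is split to glutamate and then to α-ketoglutarate, which releases ammonium for the urine and bicarbonate for the blood, and the carbon leaves through malate, oxaloacetate and phosphoenolpyruvate towards glucose. Acidosis, fasting and glucocorticoids are known to raise this pathway and insulin to restrain it.

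Raw counts per kidney totalled 16189041 to 20374327 in control and 13732173 to 20853293 in FeD. At these depths 3 counts, the least signal considered, correspond to 0.144 to 0.219 CPM (counts scaled to a common library size), and the least abundant member had at least 659 counts in every kidney. Markers of the proximal tubule were abundant in every kidney and were lower in FeD, with a summed level of 14670 to 15750 CPM in control and 8501 to 8761 CPM in FeD. One library stood apart in its adrenal markers. The 6 adrenal markers summed to 778 CPM in FeD kidney 2, against 11.8 and 12.5 CPM in FeD kidneys 1 and 3 and 7.82 to 71.8 CPM in control kidneys, of which control kidney 1 was the highest. Cyp11b1, an enzyme of the adrenal cortex, had 1828 counts in FeD kidney 2 and at most 6 in any other kidney. The members' fold changes and ratios are therefore also given without FeD kidney 2. So are the counts of genes called among the members, the pathway lists and all genes. Counts for the marker lists and the background percentages rest on all 6 kidneys.

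The upstream sequences of 4 members are shown because 3 of them, Glul, Fbp1 and Pck2, passed the test below and the fourth, Pck1, is the control point of the pathway. The 250 bases before the start site were taken from the RefSeq promoter table (GRCm38.p6), which held all 9 members, and were located in NCBIM37 (mm9) by exact match. They are written 5′ to 3′ on the strand of the gene. Capitals mark a match on either strand to one of 4 motifs, namely the cAMP response half-site TGACG, the hypoxia response core ACGTG, the FoxO site TGTTTAC and the TATA box TATAAA; matches may share bases, as TGACG and ACGTG would in TGACGTG. Pck1 lies at chr2:172978324-172978573 (plus strand), Glul at chr1:155746809-155747058 (plus strand), Fbp1 at chr13:62989643-62989892 (minus strand) and Pck2 at chr14:56158853-56159102 (plus strand).
Pck1: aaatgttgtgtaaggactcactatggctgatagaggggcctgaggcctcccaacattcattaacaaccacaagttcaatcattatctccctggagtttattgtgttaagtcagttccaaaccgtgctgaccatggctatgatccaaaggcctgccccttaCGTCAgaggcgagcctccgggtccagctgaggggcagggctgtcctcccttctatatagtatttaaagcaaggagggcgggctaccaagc
Glul: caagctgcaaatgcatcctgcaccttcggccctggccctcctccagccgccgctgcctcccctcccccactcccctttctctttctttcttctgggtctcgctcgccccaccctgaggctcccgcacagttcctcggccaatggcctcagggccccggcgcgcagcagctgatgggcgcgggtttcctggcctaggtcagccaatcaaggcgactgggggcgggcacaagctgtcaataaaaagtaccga
Fbp1: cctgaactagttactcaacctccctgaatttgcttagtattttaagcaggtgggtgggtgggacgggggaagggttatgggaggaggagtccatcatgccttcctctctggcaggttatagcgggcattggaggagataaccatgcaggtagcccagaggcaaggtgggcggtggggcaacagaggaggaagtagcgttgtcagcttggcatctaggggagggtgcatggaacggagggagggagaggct
Pck2: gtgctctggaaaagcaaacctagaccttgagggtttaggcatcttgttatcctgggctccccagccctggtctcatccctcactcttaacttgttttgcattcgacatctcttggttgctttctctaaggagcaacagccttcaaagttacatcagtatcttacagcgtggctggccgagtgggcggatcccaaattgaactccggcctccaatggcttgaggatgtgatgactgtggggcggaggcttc

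Of these 4 windows, that of Pck1 held 1 cAMP response half-site, read on the opposite strand, and the other 3 held no match to any of the 4 motifs. Among the remaining members the half-site occurred in 2 overlapping windows of Slc37a4, which has 3 listed start sites, the hypoxia response core in 1 of 2 windows of Pcx, and the TATA box in the window of G6pc and in 1 of Slc37a4. The FoxO letters TGTTTAC had no exact match in the windows of any member. Variants of this site and bases farther upstream were not searched. Across all 32851 promoter windows of the table, the half-site was found in 17.8%, the hypoxia response core in 16.6%, the FoxO site in 3.17% and the TATA box in 12.4%. These matches describe letters in the windows and not binding.

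In FeD kidneys Glul, which makes glutamine, rose 1.87-fold and Fbp1, a late enzyme of glucose synthesis, fell 1.43-fold. The means of Pck1 and G6pc, which open and close the route from oxaloacetate to glucose, were 1.08 and 1.00 times those of control kidneys and did not pass the test. In RNA of whole kidneys, fewer cells of a type and less RNA per cell cannot be told apart. Of the 9 members, 2 rose (Glul and Pck2), 1 fell (Fbp1) and 6 did not pass at an adjusted P under 0.05 (quasi-likelihood test of edgeR, P values adjusted over all tested genes after Benjamini and Hochberg). The background was 45.7% of all tested genes, with 22.4% higher and 23.3% lower in FeD, and 3 of 9 is not above this share. None of the members reached a 2-fold change with edgeR or DESeq2, including the 3 with an unadjusted P under 0.05, against 4.34% of all genes that rose and 5.69% that fell by at least this much. For 4 members the groups were free of overlap, Glul, Pck2, Fbp1 and Pcx, against 58.1% of all genes. Without FeD kidney 2, the kidney with adrenal transcripts, 3 members rose (Glud1 in addition) and 1 fell. Without FeD kidney 3, 4 members rose and 1 fell. Over all genes, 3397 rose and 3527 fell with all kidneys. These numbers were 3353 and 3190 without FeD kidney 2, and 3937 and 3817 without FeD kidney 3. The median log2 fold change of the members was 0.10, and that of all tested genes was -0.0018.

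**Figure D1:**
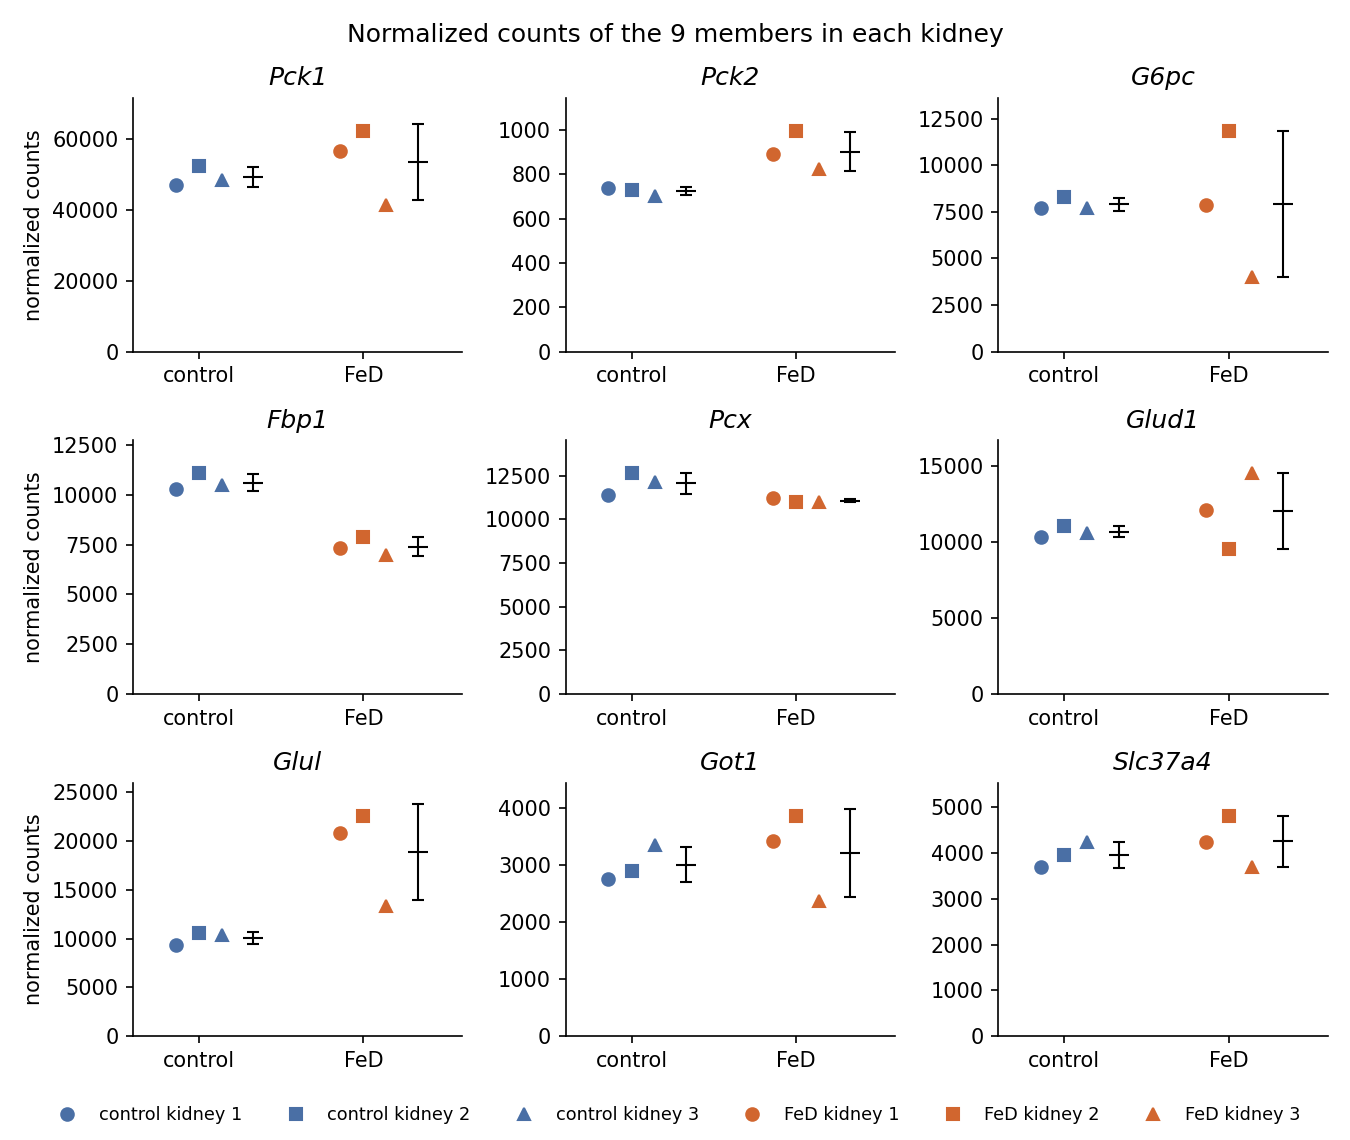
Normalized counts (vertical axes, from 0) of each member in the 3 control and 3 FeD kidneys, with each kidney a point and the black bar the mean ± SD. Glul and Pck2 lie higher and Fbp1 lower in every FeD kidney, and G6pc spans 4009 to 11832 in FeD against 7699 to 8285 in control.

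Pyruvate carboxylase, encoded by Pcx (chromosome 19, 4510472 to 4621752, plus strand, mm9), makes oxaloacetate from pyruvate in the mitochondrion and opens the route from lactate. Its normalized counts, which are counts scaled by edgeR's TMM method to the mean library size, were 11408, 12637 and 12144 in control kidneys and 11210, 11016 and 11024 in FeD kidneys. Every FeD kidney lay just below the lowest control kidney. The difference did not pass (log2 fold change -0.12 ± 0.07 SE, edgeR adjusted P = 0.193), nor without FeD kidney 2 (-0.10, edgeR adjusted P = 0.348).

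Phosphoenolpyruvate carboxykinase turns oxaloacetate into phosphoenolpyruvate and exists as a cytosolic enzyme, Pck1, and a mitochondrial one, Pck2. Pck1 (chromosome 2, 172978549 to 172984774, plus strand) had 47228, 52547 and 48424 normalized counts in control kidneys and 56784, 62342 and 41574 in FeD kidneys. FeD kidneys 1 and 2 were above all controls and FeD kidney 3 was below them. The means of 49400 ± 2790 and 53567 ± 10752 (SD, n = 3) differed by less than the SD of the FeD kidneys (log2 fold change 0.12 ± 0.15 SE, edgeR adjusted P = 0.542). Without FeD kidney 3 the log2 fold change was 0.28 and passed (edgeR adjusted P = 0.017), and without FeD kidney 2 it was 0.01 (edgeR adjusted P = 0.944).

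Pck2 (chromosome 14, 56159103 to 56168854, plus strand) had 739, 729 and 702 normalized counts in control kidneys and 890, 994 and 821 in FeD kidneys. All FeD kidneys lay above all control kidneys. Pck2 rose 1.24-fold (log2 fold change 0.32 ± 0.09 SE, edgeR adjusted P = 0.019), a call that was lost without control kidney 1, 2 or 3 (edgeR adjusted P = 0.056, 0.067 and 0.077). Without FeD kidney 2 the log2 fold change was 0.26 (edgeR adjusted P = 0.030). The log2 ratio of Pck1 to Pck2 raw counts within each library was 6.00, 6.17 and 6.11 in control kidneys and 5.99, 5.97 and 5.66 in FeD kidneys. The FeD values all lay below the control values, the nearest pair by a small margin, and the difference of the means was -0.22 (two-sided exact permutation test, P = 0.1, the smallest that 3 against 3 can give; 0.3 after Benjamini-Hochberg adjustment over the 3 ratios tested). This difference was -0.26 without FeD kidney 2 and -0.11 without FeD kidney 3.

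Fructose-1,6-bisphosphatase, encoded by Fbp1 (chromosome 13, 62966113 to 62989642, minus strand), removes a phosphate from fructose-1,6-bisphosphate and is a second irreversible step of glucose synthesis. Control kidneys had 10276, 11084 and 10486 normalized counts, and FeD kidneys had 7320, 7911 and 6976. The groups were well apart. Fbp1 fell from 10615 ± 419 to 7403 ± 473 (SD, n = 3), or -0.52 ± 0.08 SE as log2 fold change (edgeR adjusted P = 0.00107). Without FeD kidney 2 it was -0.55 (edgeR adjusted P = 0.0014).

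The last step is carried out by the glucose-6-phosphatase system of the endoplasmic reticulum, in which Slc37a4 encodes the transporter that brings glucose-6-phosphate in and G6pc the catalytic subunit. G6pc (chromosome 11, 101228875 to 101239217, plus strand) had 7699, 8285 and 7702 normalized counts in control kidneys and 7893, 11832 and 4009 in FeD kidneys. FeD kidney 2 was the highest and FeD kidney 3 the lowest of all 6, a 2.95-fold range, whereas the control kidneys spanned 1.08-fold. The means of 7895 ± 337 and 7911 ± 3911 (SD, n = 3) differed by 0.00 ± 0.31 SE on the log2 scale (edgeR adjusted P = 0.997). Without FeD kidney 2 the log2 fold change was -0.39 and without FeD kidney 3 it was 0.33 (edgeR adjusted P = 0.228 and 0.0908).

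Slc37a4 (chromosome 9, 44205182 to 44211046, plus strand) had 3684, 3959 and 4243 normalized counts in control kidneys and 4250, 4814 and 3704 in FeD kidneys. The groups overlapped and the difference did not pass (log2 fold change 0.10 ± 0.10 SE, edgeR adjusted P = 0.444). It was 0.03 without FeD kidney 2 (edgeR adjusted P = 0.835) and 0.20 without FeD kidney 3 (edgeR adjusted P = 0.0545). The log2 ratio of G6pc to Slc37a4 raw counts was 1.06, 1.07 and 0.86 in control kidneys and 0.89, 1.30 and 0.11 in FeD kidneys. The ratios of the groups overlapped (difference of means -0.23, two-sided exact permutation test, P = 0.8, and 0.8 after adjustment over 3 ratios). Their difference was -0.49 without FeD kidney 2 and 0.10 without FeD kidney 3.

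Glutamine synthetase, encoded by Glul (chromosome 1, 155747074 to 155756853, plus strand), joins ammonium to glutamate and so runs against the release of ammonium; it is known to fall in the proximal tubule in acidosis. It had 9383, 10514 and 10383 normalized counts in control kidneys and 20756, 22558 and 13283 in FeD kidneys. All FeD kidneys lay above all control kidneys, with FeD kidneys 1 and 2 far above and FeD kidney 3 nearer. Glul rose from 10093 ± 619 to 18866 ± 4918 (SD, n = 3), or 0.90 ± 0.18 SE as log2 fold change (edgeR adjusted P = 0.00435). It was 0.77 without FeD kidney 2 (edgeR adjusted P = 0.00881) and 1.11 without FeD kidney 3 (edgeR adjusted P = 2.3e-05), which is above 2-fold. Exons of 5830403L16Rik on the opposite strand cover 2.01% of the exon bases of Glul, and the strand setting of the counting was not stated.

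Glutamate dehydrogenase, encoded by Glud1 (chromosome 14, 35123913 to 35158330, plus strand), releases ammonium from glutamate and yields α-ketoglutarate. Its normalized counts were 10363, 11082 and 10608 in control kidneys and 12091, 9520 and 14521 in FeD kidneys. FeD kidney 3 was the highest and FeD kidney 2 the lowest of all 6, the reverse of G6pc. The difference did not pass (log2 fold change 0.17 ± 0.14 SE, edgeR adjusted P = 0.34), but passed without FeD kidney 2 (log2 fold change 0.34, edgeR adjusted P = 0.0262). Without FeD kidney 3 the log2 fold change was 0.03 (edgeR adjusted P = 0.829). A single stretch elsewhere in mm9 with at least 97% identity covers 35.1% of the longest Glud1 transcript, and because only uniquely mapped reads were counted Glud1 can be undercounted. No such stretch of 100 bases or more was found for the other members.

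The log2 ratio of Glud1 to Glul raw counts, which sets glutamate breakdown against glutamine synthesis, was 0.14, 0.08 and 0.03 in control kidneys. In FeD kidneys it was -0.78, -1.25 and 0.13. FeD kidneys 1 and 2 were far below the controls, and FeD kidney 3 was within their range. The difference of the means was -0.72 (two-sided exact permutation test, P = 0.3, and 0.45 after adjustment over 3 ratios). It was -0.41 without FeD kidney 2 and -1.10 without FeD kidney 3.

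Cytosolic aspartate aminotransferase, encoded by Got1 (chromosome 19, 43574242 to 43599095, minus strand), exchanges the amino groups of aspartate and glutamate and carries carbon as aspartate between mitochondrion and cytosol. It had 2756, 2899 and 3344 normalized counts in control kidneys and 3407, 3857 and 2365 in FeD kidneys. FeD kidneys 1 and 2 lay above the controls and FeD kidney 3 below them. Its log2 fold change was 0.10 ± 0.16 SE (edgeR adjusted P = 0.663), which became 0.29 and passed without FeD kidney 3 (edgeR adjusted P = 0.0273) and turned to -0.04 without FeD kidney 2 (edgeR adjusted P = 0.866).

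The members could be ranked against each other only after division by exon length. Per kilobase of exon in the mm9 annotation, Pck1 stood at 806 ± 45.5 TMM-scaled CPM in control kidneys (SD, n = 3), followed by Fbp1 at 349 ± 13.8, G6pc at 183 ± 7.82 and Glul at 170 ± 10.4. Pcx at 158 ± 8.10, Glud1 at 146 ± 5.0, Slc37a4 at 91.2 ± 6.44, Got1 at 66.1 ± 6.76 and Pck2 at 11.9 ± 0.316 came next. Among neighbours in this order, Glul and Pcx overlapped between kidneys, as did Pcx and Glud1. The length was all exon bases of a gene. It exceeded the longest coding transcript for Glul (3329 against 2792 bases) and Glud1 (4089 against 3269), but not for G6pc (2414 in both). The order of G6pc, Glul, Pcx and Glud1 depends on this choice and is not taken as resolved. Glud1 can also be undercounted, as given above.

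In FeD kidneys Pck1 remained first, at 874 ± 175 CPM per kilobase, and Pck2 last, at 14.9 ± 1.43. Glul stood second at 317 ± 82.7 followed by Fbp1 at 243 ± 15.5, but their kidneys overlapped. Fbp1 and G6pc, G6pc and Glud1, and Glud1 and Pcx also overlapped, so the middle of the order was not resolved in FeD.

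**Figure D2:**
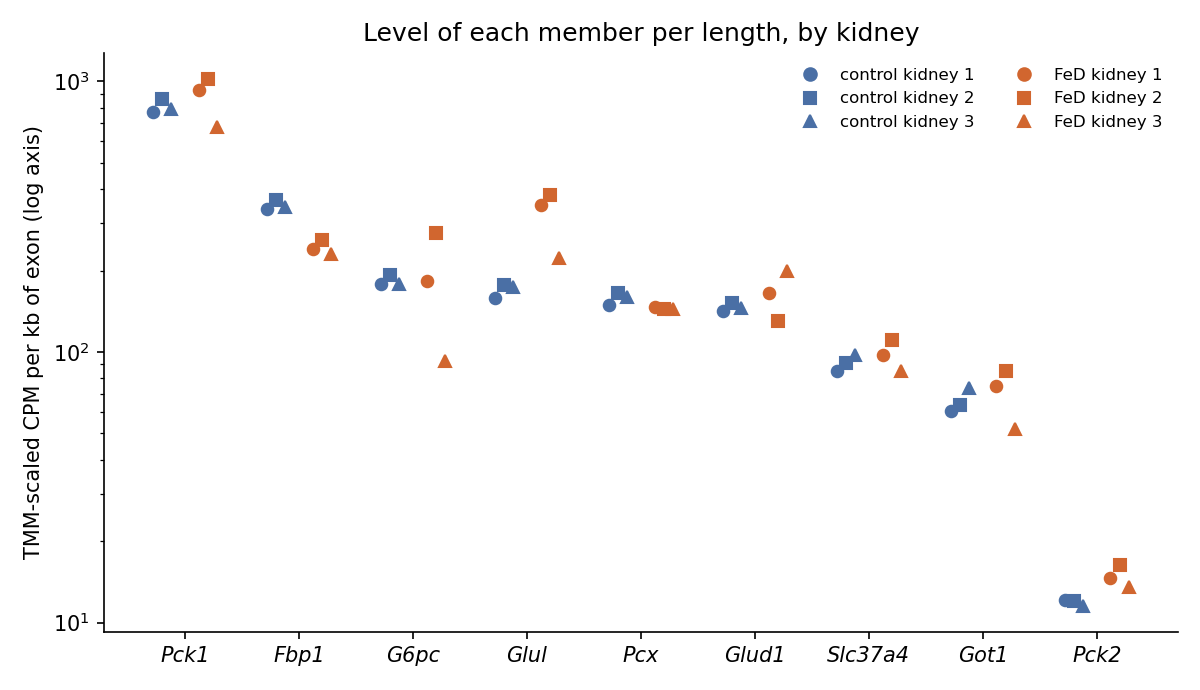
Level of each member in TMM-scaled CPM per kilobase of exon (log axis), with each kidney a point, ordered by the control mean. Pck1 is highest at 806 in control and 874 in FeD and Pck2 lowest at 11.9 and 14.9, while the FeD points of G6pc, Glud1 and Pcx overlap.

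The FeD kidneys differed among themselves more than the control kidneys did. Over all tested genes the highest FeD kidney exceeded the lowest by a median of 1.24-fold, and for control kidneys this value was 1.12-fold. For the members the range over FeD kidneys was 2.95-fold for G6pc, 1.7-fold for Glul, 1.63-fold for Got1, 1.53-fold for Glud1 and 1.5-fold for Pck1, and it was only 1.02-fold for Pcx. In 7 of the 9 members FeD kidney 2 was the highest, FeD kidney 1 the middle and FeD kidney 3 the lowest of the FeD kidneys, an order held by 3187 of the 15145 tested genes. The exceptions were Glud1 and Pcx. This order was noticed after the values were seen.

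Summed marker levels differed between the same kidneys. Among FeD kidneys the adrenal markers were high in kidney 2 alone. Markers of the thick ascending limb summed to 5446, 4633 and 7684 CPM in FeD kidneys 1, 2 and 3, against 6118 to 6526 CPM in control. This was the order of Glud1, but it is not particular to that segment. Collecting duct markers (2780, 1944 and 3151 CPM) and podocyte markers (743, 572 and 813 CPM) held it too. Proximal tubule markers summed to 8761, 8739 and 8501 CPM in the same FeD kidneys. The part of these cell types in the members' levels was not tested.

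The members were also set against 16 proximal tubule markers, since these cells are where glucose is made in the kidney. Of the 16 markers 10 fell and 6 did not pass, with a median log2 fold change of -0.47. As background for this and the marker counts below, 23.3% of all tested genes fell and 22.4% rose. The falls were uneven, from -4.89 for the glucose transporter Slc5a2, -3.39 for the inositol oxygenase Miox and -2.22 for the phosphate transporter Slc34a1 to -0.48 for the endocytic receptor Lrp2 and -0.45 for its partner Cubn, whereas the lactate transporter Slc5a12 (0.18, edgeR adjusted P = 0.327) and the fatty acid transporter Slc27a2 (0.01, edgeR adjusted P = 0.928) did not pass.

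The mean log2 CPM of the 16 markers was 9.13, 9.24 and 9.21 in control and 8.10, 8.06 and 8.12 in FeD kidneys. Relative to this mean, the 9 members were higher in FeD by a median of 1.20 on the log2 scale, from 0.58 for Fbp1 to 1.97 for Glul. For each member every FeD kidney lay above every control kidney, but this also held for 89.8% of all tested genes and so is not particular to the members. With the median of the markers in place of their mean, the median of the members was 0.77, and with the mean but without FeD kidney 2 it was 1.06.

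**Figure D3:**
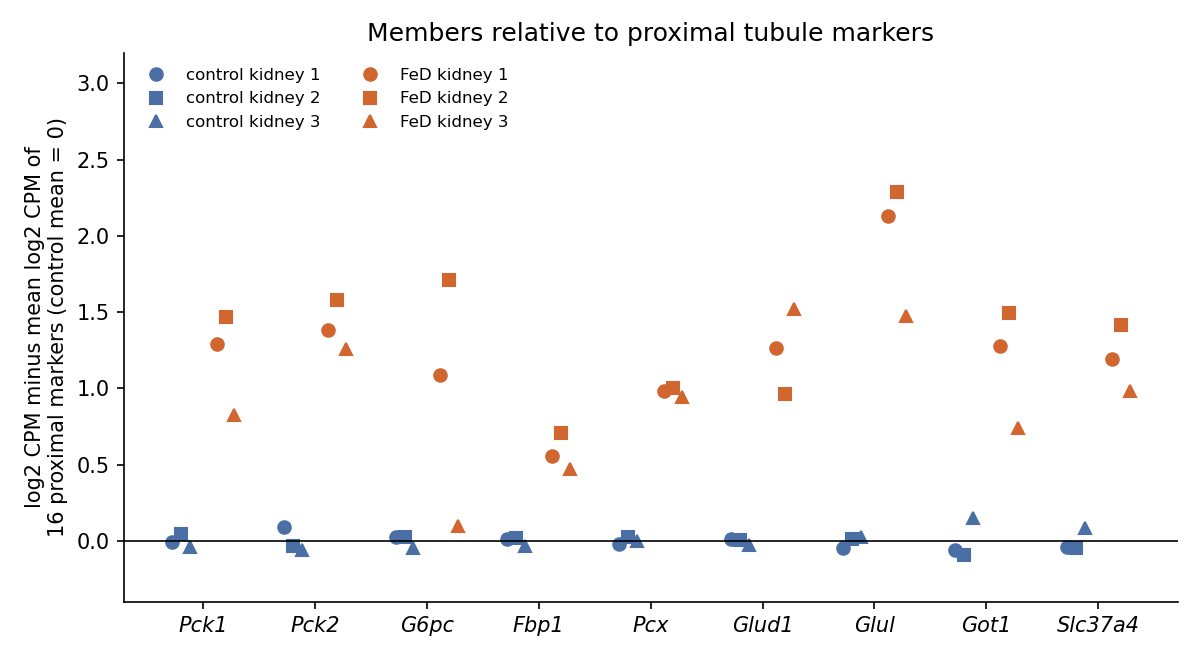
Difference between the log2 CPM of each member and the mean log2 CPM of 16 proximal tubule markers (vertical axis, control mean set to 0), with each kidney a point. All FeD points lie above the control points, with a mean difference of 1.97 for Glul and 0.58 for Fbp1, and G6pc in FeD kidney 3 lies closest to the controls.

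Markers of other cells were examined for the same reason. In the thick ascending limb the 4 markers did not pass (edgeR adjusted P from 0.0651 to 0.636), nor did the 4 podocyte markers (edgeR adjusted P from 0.143 to 0.876). In the distal convoluted tubule 2 of 3 markers fell and their sum went from 1219 to 1530 CPM in control to 347 to 545 CPM in FeD. In the collecting duct 3 of 6 rose and 3 fell, in endothelium 3 of 4 fell, in stroma 2 of 4 rose and 2 fell, and in myeloid cells 2 of 4 rose and 1 fell.

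Fat and liver express several of the members. All 4 adipocyte markers fell, and their sum was 101 to 119 CPM in control and 28.4 to 36.9 CPM in FeD. Of the 4 liver markers Apoa2 rose, and Alb, the most abundant transcript of liver, had 3 to 25 raw counts per kidney. Of the 6 adrenal markers 3 were tested, and Star and Cyp21a1 passed, with most of their counts in FeD kidney 2. Of the 5 red blood cell markers the 4 globin genes were listed at 0 in every kidney, which is not read as lack of expression. Alas2 did not pass (edgeR adjusted P = 0.0812). The part of these cells in the members' levels was not tested.

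Other genes of glutamine and ammonia handling were taken from a list of 17, of which 16 were tested. In FeD kidneys 4 rose, 7 fell and 5 did not pass, and the median of the log2 fold changes was -0.34. Without FeD kidney 2, 4 rose and 6 fell, and without FeD kidney 3, 4 rose and 9 fell. Among all tested genes 22.4% rose and 23.3% fell. The 4 that rose bring glutamine or other neutral amino acids into the cell or move bicarbonate out. The amino acid transporter Slc38a2 rose by 0.75 on the log2 scale, the apical neutral amino acid transporter Slc6a19 by 0.60, the basolateral sodium bicarbonate cotransporter Slc4a4 by 0.57 and the basolateral glutamine transporter Slc38a3 by 0.41.

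Slc38a3, singled out with its values known, had 1231, 1271 and 1198 normalized counts in control and 1549, 1745 and 1637 in FeD kidneys (edgeR adjusted P = 0.00145). The mitochondrial aspartate-glutamate carrier Slc25a13 did not pass (log2 fold change 0.08, edgeR adjusted P = 0.42).

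Aminotransferases and ammonia transporters were among the 7 that fell. The ammonia transporter Rhbg of the distal nephron fell from 1572 ± 103 to 816 ± 113 normalized counts (SD, n = 3; log2 fold change -0.94, edgeR adjusted P = 0.000301). Mitochondrial alanine aminotransferase, Gpt2, fell by 0.76 on the log2 scale (edgeR adjusted P = 0.00177). Got2, the mitochondrial partner of Got1, was also singled out with its values known, and went from 8331 ± 540 to 6105 ± 275 (log2 fold change -0.45, edgeR adjusted P = 0.0021).

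The steps of glucose synthesis outside the 9 members formed a second list, of which 21 of 22 genes were tested. Not all of its genes are particular to glucose synthesis, Khk, Gapdh and Ldha among them. The Eno1 row had fewer than 4 normalized counts in each kidney and was not tested. Copies of Eno1 elsewhere in the genome were not sought, so this is not read as lack of expression. In FeD kidneys 12 of the 21 fell, 1 rose and 8 did not pass, and the median of the log2 fold changes was -0.28. Without FeD kidney 2, 11 fell and 2 rose, and without FeD kidney 3, 13 fell and 2 rose. Of all tested genes 23.3% fell and 22.4% rose. Cytosolic malate dehydrogenase, Mdh1, which regenerates oxaloacetate for Pck1, had 22697, 23804 and 24228 normalized counts in control and 12056, 11207 and 11296 in FeD kidneys (log2 fold change -1.03, edgeR adjusted P = 5.16e-05). The groups were far apart and varied little within.

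Its mitochondrial counterpart Mdh2 fell by 0.82 on the log2 scale and the mitochondrial dicarboxylate carrier Slc25a10, which exports malate, by 0.93. The largest falls in this list were log2 fold changes of -1.42 for glycerol-3-phosphate dehydrogenase (Gpd1) and -1.35 for ketohexokinase (Khk). Glycerol kinase (Gk), singled out with its values known, did not pass (-0.21, edgeR adjusted P = 0.117). Glucose-6-phosphate isomerase, Gpi1, was the one that rose (0.43, edgeR adjusted P = 0.00661) and was singled out with its values known. Aldolase A (Aldoa) and lactate dehydrogenase A (Ldha) did not pass (edgeR adjusted P = 0.123 and 0.0764).

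**Figure D4:**
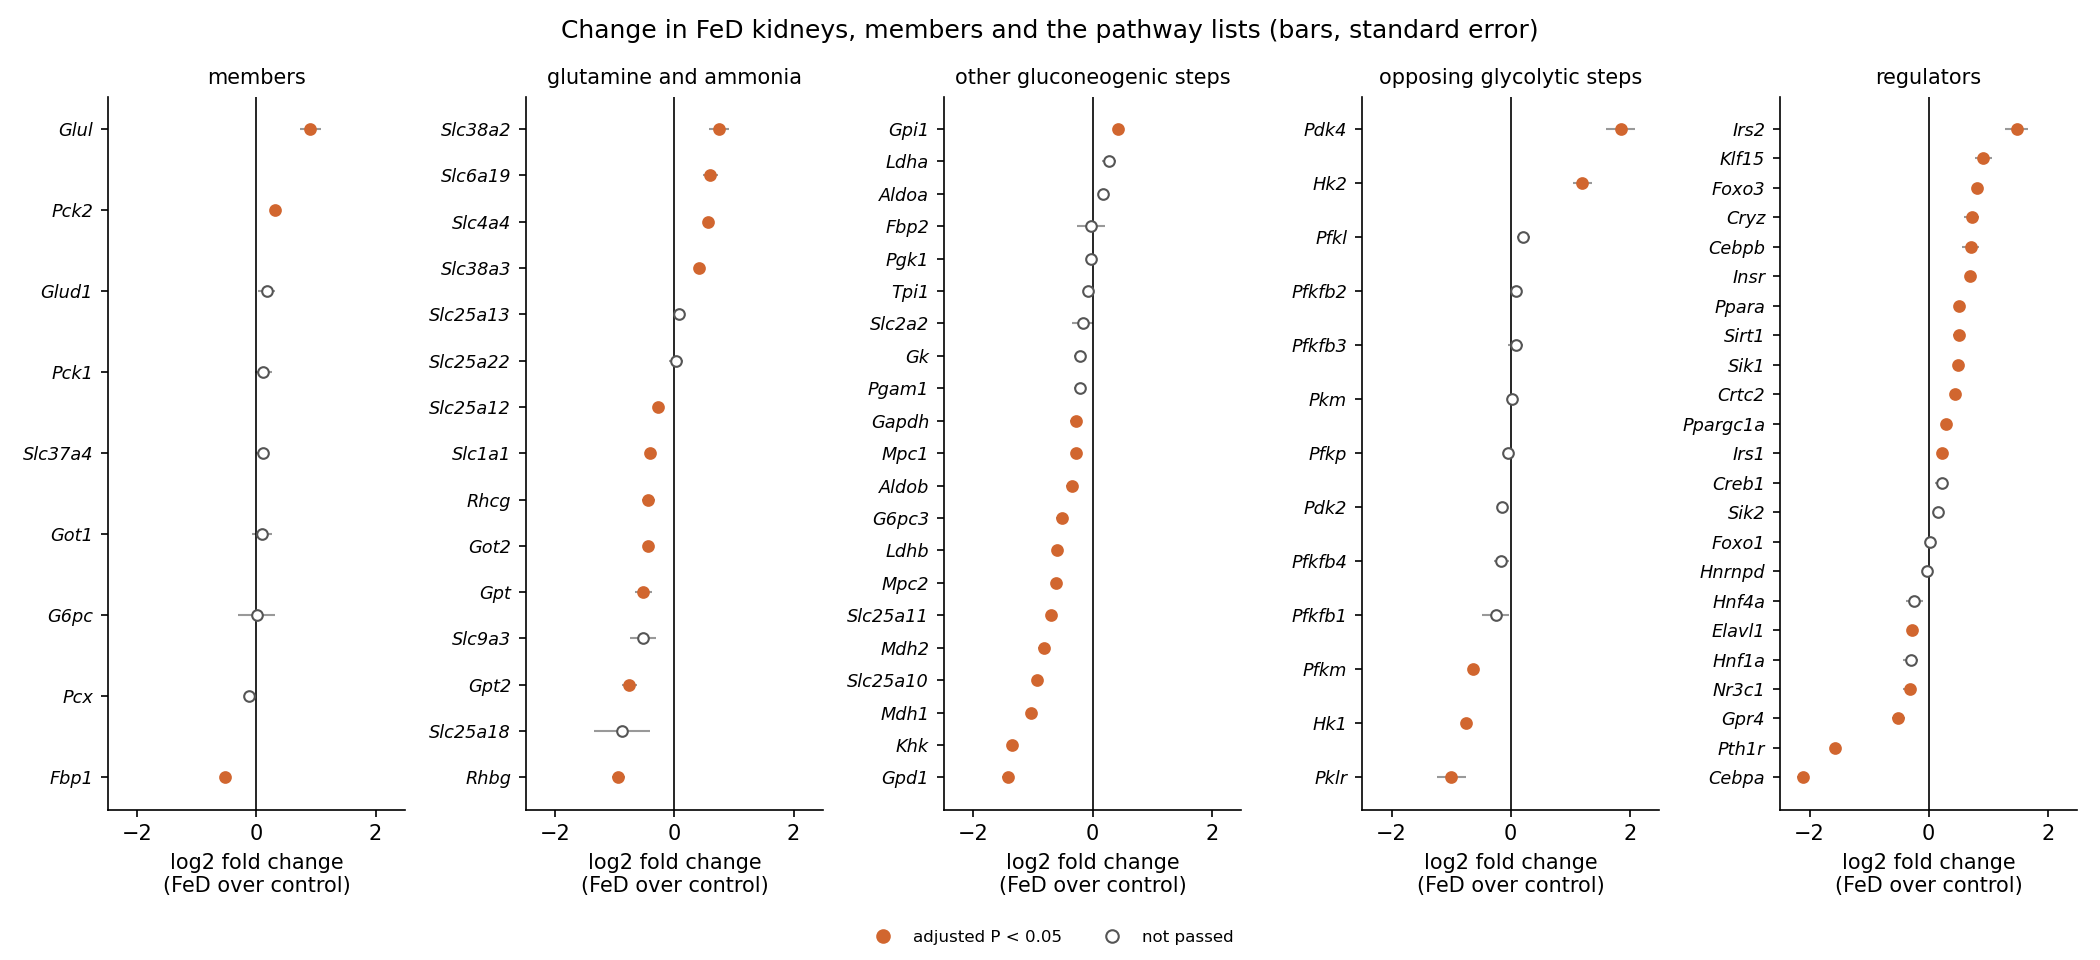
Log2 fold changes of FeD over control kidneys (horizontal axes) for the members and for the tested genes of the 4 pathway lists other than 2 not reported here, with bars for the standard error and filled points for an adjusted P under 0.05. The members lie between -0.52 for Fbp1 and 0.90 for Glul, and 12 of 21 genes in the list of other gluconeogenic steps lie to the left and passed.

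Another list held 13 genes of glycolysis and of the control of pyruvate oxidation, all tested. Of these 2 rose, 3 fell and 8 did not pass (3 and 3 without FeD kidney 2), beside 22.4% and 23.3% of all tested genes that rose and fell. Not all of them oppose gluconeogenesis, since the kinases Pdk4 and Pdk2 restrain the oxidation of pyruvate. Pyruvate dehydrogenase kinase 4, Pdk4, which spares pyruvate from oxidation, had 1015, 1084 and 1004 normalized counts in control and 4540, 4422 and 2225 in FeD kidneys (log2 fold change 1.85, edgeR adjusted P = 0.000627). As with Glul, FeD kidney 3 was the lowest of the FeD kidneys and still above all controls. Hexokinase 2 (Hk2) rose by 1.20 on the log2 scale. Hexokinase 1 (Hk1), phosphofructokinase (Pfkm) and the pyruvate kinase Pklr had log2 fold changes of -0.75, -0.63 and -0.995 and passed, and the more abundant pyruvate kinase Pkm (0.02, edgeR adjusted P = 0.862) and Pdk2 (-0.15, edgeR adjusted P = 0.152) did not.

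Regulators known to act on these genes were listed as 24, all tested. Of these 12 rose, 5 fell and 7 did not pass, beside 22.4% and 23.3% of all tested genes that rose and fell. Without FeD kidney 2, 12 rose and 4 fell, and without control kidney 2 or 3, 3 fell. Insulin receptor substrate 2 (Irs2), a gene restrained by insulin in liver, rose by 1.48 on the log2 scale, the fasting-induced factor Klf15 by 0.92 and Foxo3 by 0.82. Cebpa, a transcription factor that activates Pck1 and G6pc in liver, had 696, 683 and 739 normalized counts in control and 150, 156 and 181 in FeD kidneys (log2 fold change -2.12, edgeR adjusted P = 8.86e-06). Pth1r, the parathyroid hormone receptor, fell by 1.57 on the log2 scale. The nuclear receptor Hnf4a, a factor of tubule identity, did not pass (log2 fold change -0.24, edgeR adjusted P = 0.185).

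The genes whose log2 CPM followed Pck1 most closely over the 6 kidneys, among the 12943 genes whose mean reached 50 normalized counts, were Tdrkh, Lss and Zfp706, with Pearson correlations of 0.995, 0.995 and 0.994. Lss, an enzyme of cholesterol synthesis, had 422, 459 and 440 normalized counts in control and 479, 505 and 398 in FeD kidneys, with FeD kidney 2 highest and FeD kidney 3 lowest as for Pck1. The log2 fold changes of these 3 genes were 0.11, 0.06 and 0.03. The points share libraries and normalization, and the correlations are given as a description.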

How the data were processed

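Total RNA of 6 kidneys was made into polyadenylated TruSeq libraries by the authors, who trimmed reads with Trimmomatic, aligned them to mm9 with TopHat 2.0.11, kept uniquely mapped reads and counted them with HTSeq (CASAVA 1.8.2 for base calls); the annotation, counting mode and strand setting are not given in the sources used here. The deposited values are raw counts for 24422 gene symbols, and no columns of other samples were present.

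Counts were tested with edgeR 4.0.16 (R 4.3.3): filterByExpr (15145 genes), TMM, the quasi-likelihood test over the whole table and Benjamini-Hochberg adjustment. The standard error is the size of the log2 fold change divided by the square root of F. Intervals of counting are not given; the floor of 3 counts covers counting error only, since reads carry no molecular identifiers. Ratios of raw counts were tested by exact permutation (scipy 1.17.1). On simulated data in which 200 genes differed by 1 on the log2 scale, edgeR recovered 200 and made 9 false calls among 15047 genes tested. The simulation gave every gene the same relative spread in both groups. It therefore does not show how often smaller changes, or changes in more variable genes, would pass. Library pairs within a group differed by more than sampling noise (chi-square per degree of freedom 3.86 to 32.0). The pairs with FeD kidney 3 differed most, at 25.25 with FeD kidney 1 and 32.03 with FeD kidney 2, against 12.07 for FeD kidneys 1 and 2. Positions, exon lengths and overlaps came from GENCODE for NCBIM37 (mm9), copies were sought with BLAST 2.17.0 (at least 97% identity over 100 bases), and upstream sequences came from RefSeq.

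The members, lists and tests were chosen with earlier results of these data known. The rule for named genes took all members; from each pathway list up to 5 passing genes with the largest change and up to 2 of the most abundant that did not pass; markers as needed; and the 3 genes most like Pck1 (log2 of CPM plus 0.5). Of the genes this rule names, 2 that did not pass are not reported here, though list counts include them. Alternatives were DESeq2 1.42.0's size factors or library size alone, no filter, at least 10 counts in every kidney, DESeq2's own test, a replicate block, globin and mitochondrial genes left out, each kidney left out, a pseudocount of 1 in the ratios, and the median of the proximal markers.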

Additional observations from a re-analysis of the deposited data

How the results depend on the processing

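Fbp1, Glul, Pcx and Slc37a4 kept their direction and their side of the threshold under all 13 alternatives of normalization, filter, test, block and kidneys; log2 fold changes ranged from -0.55 to -0.47 for Fbp1 and from 0.77 to 1.11 for Glul. The sign of G6pc changed with no filter on low counts (-0.0093), with the replicate block (-0.13), and without control kidney 1 (-0.02), control kidney 3 (-0.02) or FeD kidney 2 (-0.39), within a range of -0.39 to 0.33 over kidneys left out; that of Got1 changed without FeD kidney 2, within a range of -0.036 to 0.29. In the 6 fits that leave out 1 kidney, 1 to 4 members rose, and 0 to 1 at 2-fold. The number was 1 without control kidney 1, 2 or 3, and 4 without FeD kidney 3. Among all genes, the number that rose was 2401 (without control kidney 2) to 3937 (without FeD kidney 3). The ratio of G6pc to Slc37a4 ranged from -0.49 to 0.10, turning positive without FeD kidney 3. The regulators that fell numbered 3 to 5. The other gluconeogenic steps that rose numbered 1 to 2, the latter without FeD kidney 2 or 3. That last number was 3 with DESeq2's test, against 1 with edgeR; the cause was not tested. Relative to proximal markers the members' median was 0.77 with the median of the markers, against 1.20 with their mean, which a few steeply lower markers pull down.

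With the replicate number as a block, 2 members rose and 1 fell, as without it, and 3100 genes rose and 3344 fell, against 3397 and 3527. Deviations of same-numbered kidneys correlated at -0.162, 9.6e-05 and -0.0348, and 0 of 3 control kidneys correlated best with the FeD kidney of their own number. No pairing was seen, but with deviations from means of 3 kidneys this check cannot show that none exists. Leaving out globin and mitochondrial genes, counted above among the 13, removed no gene that was tested and so is no check. With 3 kidneys against 3, a small change such as that of Pck2 rests on every control kidney, and the exact test of a ratio cannot go below 0.1. Groups of 3 were too small for a check of outlying samples.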
